A study of Rattus norvegicus with 12 samples.

Results

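Rat hippocampal slice cultures treated with the monoclonal antibody 7B12 were set against cultures treated with 11C7, an antibody to another stretch of the same protein, Nogo-A. The comparison was made of the 3 arrays titled 7B12 Treated and the 3 titled 11C7 Treated, 6 of the 12 arrays of the series, chosen by their titles and matched by replicate number. The 6 others, 3 of untreated cultures (NT) and 3 of cultures given a control IgG, served as background. All cultures came from hippocampi of Wistar rats at postnatal day 7, sliced at 350 µm, placed 4 slices to an insert and kept at 33 °C and 5% CO2 for 26 days in vitro. Antibody, at 3 µg/ml, was present in the medium of the IgG, 11C7 and 7B12 groups over the last 5 days, starting on day 21, and the medium was replaced every 2 days. NT cultures received no antibody. The control IgG is directed against wheat auxin, a plant hormone. Per the labels, the epitope of 11C7 lies within residues 623 to 640 of Nogo-A and that of 7B12 within residues 763 to 820. Each array carries RNA pooled from 24 cultures, and the replicates were separate cultures of different animals. The labels name no genetic change in any group. Slices have no blood supply in culture.

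Nogo-A is the longest product of the Rtn4 gene, a membrane protein of oligodendrocytes and of some neurons that restrains neurite growth. It acts through the receptor NgR1 with its partners Lingo1, p75 and Troy, and through the sphingolipid receptor S1PR2, onto the small GTPase RhoA and its kinases. Both antibodies bind the part of Nogo-A that the shorter Rtn4 products lack, and both are used to block its function. Microglia are the resident macrophages of brain tissue and carry Fc receptors, which bind the constant part of an antibody. Interferons and the transcription factor NF-κB switch on partly separate sets of immune genes. Myelin is the membrane wrapped around axons by mature oligodendrocytes, which arise from precursor cells.

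The value used for each gene is the log2 of the deposited ratio less the median of its array, averaged over probe sets that carry only that gene's symbol. A difference is 7B12 less 11C7 on that log2 scale, with the standard error (SE) of the limma fit over all 12 arrays, and a pair is the 7B12 array and the 11C7 array of the same number. The ratios are relative to each probe set's own reference, so levels of different genes cannot be compared and no gene can be called present or absent. Over the 12 arrays, medians of the log2 ratios lay between -0.13 and -0.02. Probe sets with a 12-array median of 1 were available for 24 of 26 markers of hippocampal principal neurons, for all 25 astrocyte, all 28 myelin and all 18 homeostatic microglia markers. The same held for only 10 of 26 markers of lymphocytes, neutrophils, mast cells and red cells. In bulk RNA, a lower value from fewer cells of a type and one from less RNA per cell cannot be told apart.

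No gene passed the test between the 2 antibodies. With limma and Benjamini-Hochberg adjustment, 0 of 31042 probe sets (0%) and 0 of 14217 genes had an adjusted p under 0.05, and the smallest adjusted p was 0.487 for probe sets and 0.266 for genes. Without adjustment, 2185 probe sets (7.04%) had a p under 0.05, of which 1237 were higher and 948 lower with 7B12. Among genes, 603 were higher (4.24%) and 567 lower (3.99%) at that limit. The split depended on the scaling: it was 446 higher against 1008 lower with arrays left uncentred, and 395 against 755 after quantile normalization. For comparison, IgG and NT, neither of which holds a Nogo-A antibody, differed in 486 genes at the same unadjusted limit. The 3 arrays of each antibody did not overlap for 529 genes higher with 7B12 (3.72%) and 488 lower (3.43%). All 3 pairs had the same sign for 1824 genes higher (12.8%) and 2080 lower (14.6%). These shares are the background for every count below, and every gene named below failed the adjusted test unless stated. Of the 1170 genes with an unadjusted p under 0.05, 76 belonged to the 366 measured genes of the immune lists and 1025 to no list at all.

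Leaving out the array of 11C7 replicate 1 changed the number of calls most. Without it, 49 genes had an adjusted p under 0.05 by limma, 44 of them higher with 7B12 (0.309% of genes), and 973 genes were higher at an unadjusted p under 0.05 (6.84%). Leaving out replicate 1 of every group, and with it the whole pair, gave 0 genes and 0 probe sets, and leaving out 11C7 replicate 3 gave 1 probe set. Of the 49, 19 were in immune lists and 27 in no list. The called genes higher with 7B12 included Il1b, a cytokine of activated macrophages, Cxcl13, a chemokine for B cells, and Tlr1 and Tlr2, receptors for bacterial lipopeptides. Ncf1, a subunit of the oxidase that makes superoxide, Itgal, a leukocyte integrin, and Lyz2, the lysozyme of macrophages, were among them as well. Those outside the immune lists included the cadherin Cdh8 and the synaptic scaffold Homer1, but also genes that behaved as the called immune genes did. Among the latter were Slpi, Clec4a, Clec4a1 and Fyb1, each high in 11C7 replicate 1 and in all 7B12 arrays. Being in no list thus does not make a gene non-immune. The values below are from all arrays. Values without this array are added for genes that were then called and are described further. The array was singled out by its effect on these same data, so adjusted p-values without it are descriptions and no separate support.

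The messenger of the target's gene, Rtn4, differed little. Its value is the mean of 2 probe sets, and whether they read Nogo-A or the shorter Rtn4 products as well is not known here. Rtn4 stood at 0.21, 0.13 and -0.03 in the 11C7 arrays 1 to 3 and at 0.14, 0.04 and -0.19 in the 7B12 arrays. The NT arrays had 0.13, 0.16 and -0.07, and the IgG arrays 0.09, 0.18 and -0.05. All 4 groups overlapped, and within each the array numbered 3 was the lowest. The difference in Rtn4 was -0.11 ± 0.09 (SE), with a limma adjusted p of 0.727. Among the relatives, Rtn1 differed by 0.02 ± 0.13 and Rtn2 by 0.31 ± 0.14. Rtn3 differed by 0.19 ± 0.12, with the 7B12 arrays at 0.13, 0.20 and 0.15 just above the 11C7 arrays at 0.03, -0.16 and 0.05. Reep5 and Arl6ip5, which shape membranes of the endoplasmic reticulum, differed by -0.11 ± 0.10 and -0.08 ± 0.10. Rtn4ip1, a mitochondrial protein that binds Nogo, differed by -0.81 ± 0.35, mostly through pair 3 at -1.77. Its probe sets disagreed, with 1 of 2 higher with 7B12. The 7 reticulon genes and partners had a median difference of -0.08, with 3 above 0.

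Receptors and partners of Nogo-A did not move together. Rtn4r, which encodes NgR1, differed by -1.62, 0.52 and -0.16 in pairs 1 to 3, so its mean difference of -0.42 ± 0.38 comes from a single pair. The probe sets of Rtn4r disagreed, with 1 of 3 higher with 7B12. Its homologues Rtn4rl1 and Rtn4rl2 differed by 0.17 ± 0.19 and 0.26 ± 0.51. Of the co-receptors, Lingo1 differed by 0.17 ± 0.32, Ngfr (p75) by 0.07 ± 0.50 and Tnfrsf19 (Troy) by 0.16 ± 0.22. The receptor S1pr2 differed by 0.47 ± 0.20, with the spread in 11C7, at 0.52, -0.10 and -0.61, against 0.49, 0.24 and 0.49 with 7B12. Downstream, Rhoa differed by -0.06 ± 0.10. The clearest members went in opposite directions. Lingo2, a relative of Lingo1, stood at -0.83, -0.19 and -0.66 with 11C7 and at -0.38, 1.15 and 0.29 with 7B12, and was higher in each pair, by 0.45, 1.34 and 0.95. Omg, a myelin protein that binds NgR1 as Nogo does, stood at -0.09, 0.56 and 0.44 with 11C7 and at -0.49, -0.03 and -0.15 with 7B12, and differed by -0.40, -0.59 and -0.59 in the pairs. Their differences were 0.91 ± 0.28 and -0.53 ± 0.15, and both had a limma adjusted p of 0.596. Over the 21 genes of this list the median difference was 0.16, with 14 above 0, and -0.04 without 11C7 replicate 2.

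Immune genes stood higher with 7B12 than with 11C7 in replicates 2 and 3, whereas in replicate 1 their median difference was close to 0. Of 366 measured genes in the 19 immune lists, 284 had a difference above 0 with a median of 0.40, against 6931 of 14217 and a median of -0.01 over all genes. At an unadjusted p under 0.05, 68 were higher and 8 lower. The median over these genes was -0.10 in pair 1, 0.46 in pair 2 and 0.69 in pair 3. A difference above 1 was found for 20 immune genes in pair 1, 104 in pair 2 and 137 in pair 3, and one below -1 for 16, 20 and 19. Over all genes such counts were 828, 1576 and 1468 above 1, so the lower count in pair 1 was not limited to immune genes.

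**Figure D1:**
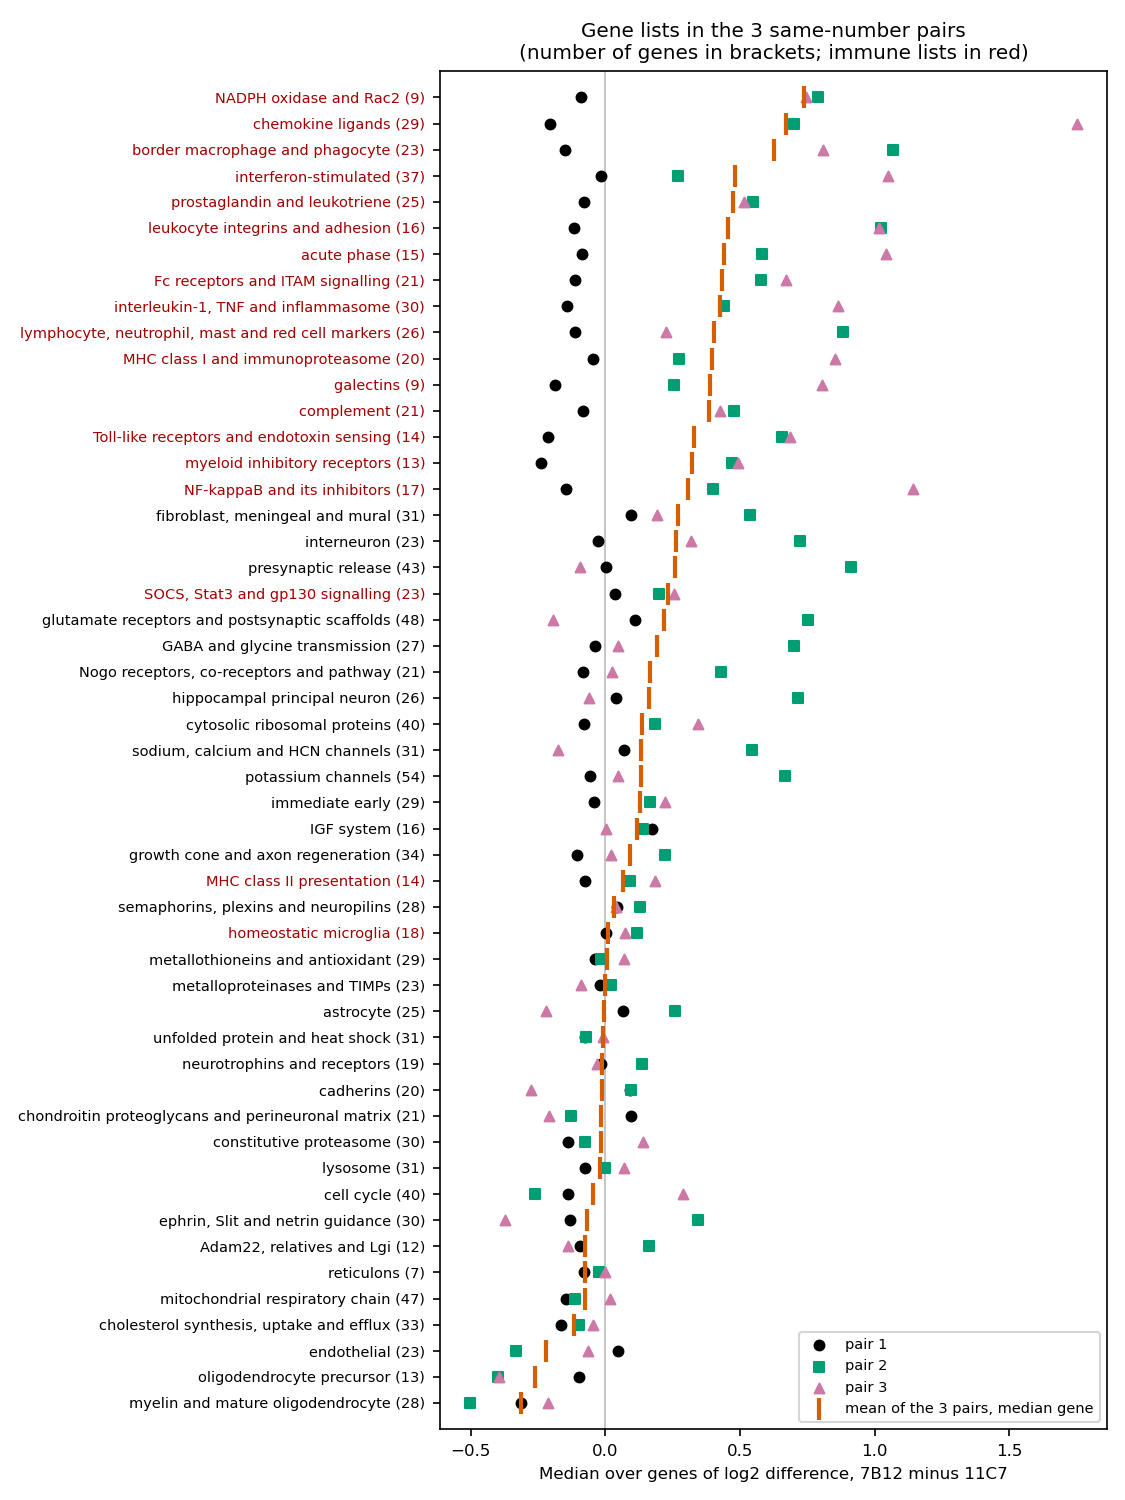
Median difference (7B12 minus 11C7, log2) of each of 51 gene lists in each pair of arrays with the same replicate number, with immune lists in red and the number of genes in brackets. Bars mark the median gene of the mean difference. The immune lists sit near 0 in pair 1 and mostly to the right of 0 in pairs 2 and 3, up to 1.75 for chemokine ligands in pair 3. Neuronal lists are displaced mainly in pair 2, and the myelin list is below 0 in all 3 pairs.

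The pattern was visible array by array. The median gene of all immune lists stood at 0.23, -0.27 and 0.02 in the 11C7 arrays and at 0.16, 0.12 and 0.59 in the 7B12 arrays. NT arrays had -0.19, -0.47 and -0.00, and IgG arrays -0.17, -0.37 and 0.06. The array of 11C7 replicate 1 thus stood with the 7B12 arrays, and the 11C7 replicates 2 and 3 with the controls. Against the mean of both control groups, the list medians were 0.51 for 7B12 and 0.22 for 11C7, which share those controls.

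Saa3, an acute phase protein made by activated macrophages and astrocytes, showed a wide range. It stood at 6.62, 0.02 and 0.61 with 11C7 and at 6.52, 4.40 and 7.17 with 7B12, while the 6 control arrays lay between -2.17 and 0.06. Every 7B12 array and 11C7 replicate 1 were high, and the 2 other 11C7 arrays were close to the controls. The difference of 3.61 ± 1.21 had a limma adjusted p of 0.596, and without 11C7 replicate 1 it was 5.35 ± 0.61 with an adjusted p of 0.0346.

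The same arrays were high for other immune genes. Il1b stood at 2.82, -0.51 and 0.50 with 11C7 and at 2.58, 2.49 and 3.94 with 7B12. Cxcl13 stood at 3.34, -1.0 and 0.28 with 11C7 and at 2.41, 3.62 and 4.35 with 7B12. Slpi, an inhibitor of leukocyte proteases, stood at 4.00, -2.30 and -0.88 with 11C7 and at 3.99, 4.42 and 4.45 with 7B12. For these 3 genes the groups overlap only through 11C7 replicate 1. Lyz2, at 0.78, -0.43 and 0.02 with 11C7 and 0.80, 1.15 and 1.57 with 7B12, was also high in that array, and its groups just failed to overlap. Without 11C7 replicate 1, the differences were 3.10 ± 0.32 for Il1b, 4.18 ± 0.27 for Cxcl13, 6.08 ± 0.70 for Slpi and 1.55 ± 0.10 for Lyz2. Their limma adjusted p-values were then 0.0346, 0.0103, 0.0346 and 0.0103. For Il1b, Cxcl13 and Slpi the array left out is the one that made the groups overlap, and for Lyz2 it is the highest of 11C7. None of these p-values is separate support.

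**Figure D2:**
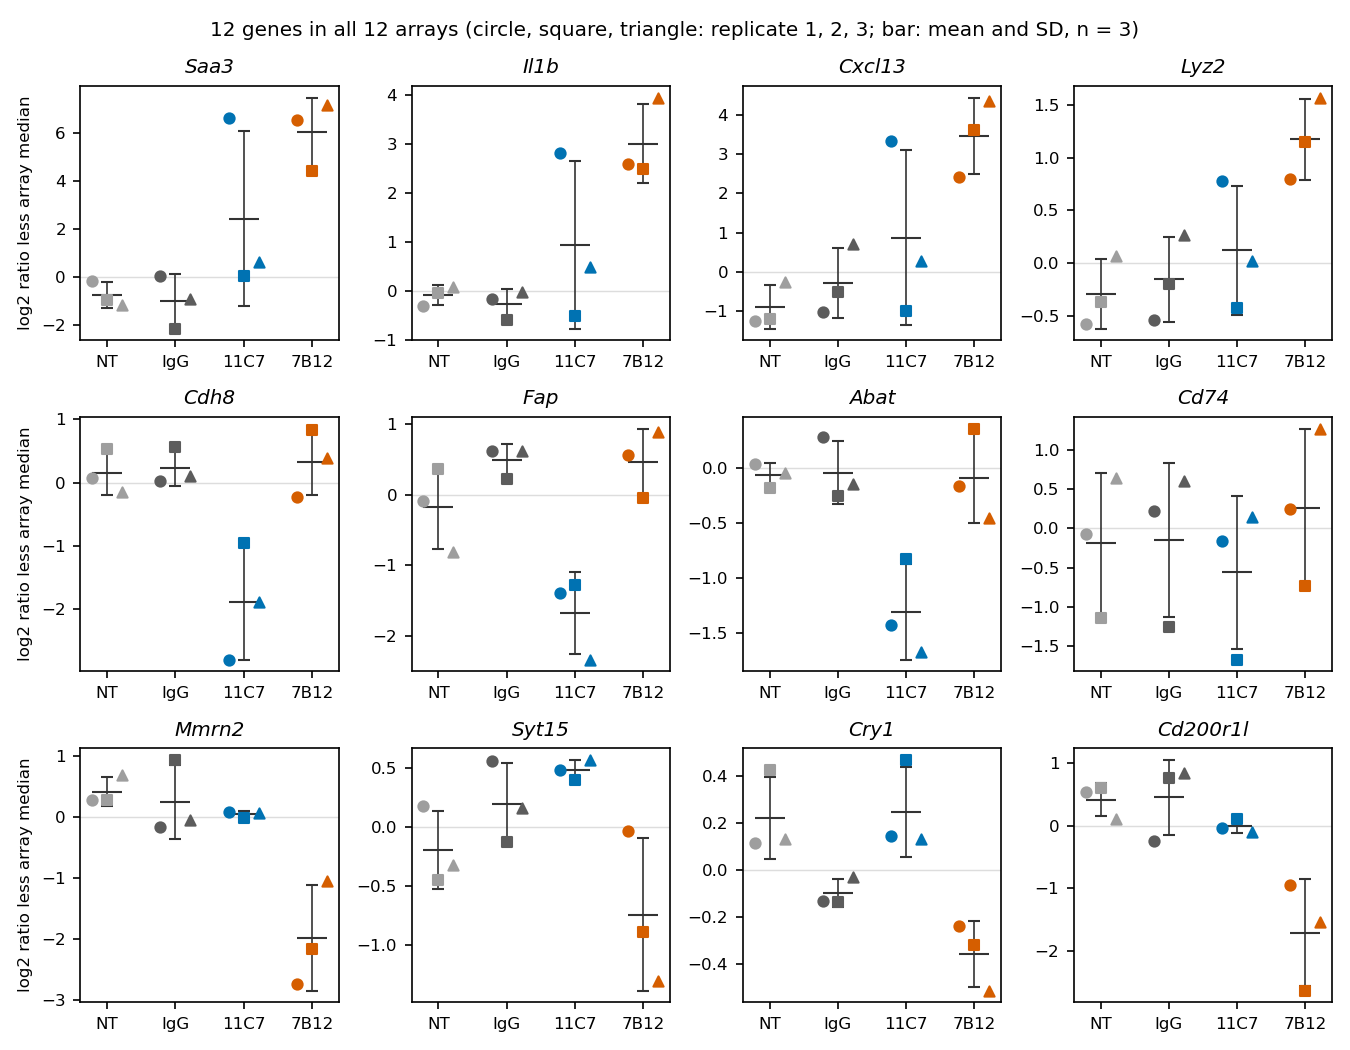
Log2 ratio less array median of 12 genes in all 12 arrays, by group, with circles, squares and triangles for replicates 1, 2 and 3 and bars for the mean and SD of 3 arrays. In the top row 11C7 replicate 1 lies with the 7B12 arrays (Saa3 at 6.62), whereas Cdh8, Fap and Abat are low in all 3 arrays of 11C7, and Mmrn2, Cry1 and Cd200r1l are low in all 3 of 7B12. For Syt15 the 7B12 arrays lie below those of 11C7, with replicate 1 (-0.03) within the control range.

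Across genes, the pair differences of the 366 immune genes had a Pearson correlation of 0.50 between pairs 2 and 3, of -0.00 between pairs 1 and 2, and of -0.12 between pairs 1 and 3. Over all 14217 genes the values were 0.09, 0.02 and -0.02. These are descriptions across genes, which are not independent replicates, and genes within a pair share the same 2 arrays.

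**Figure D3:**
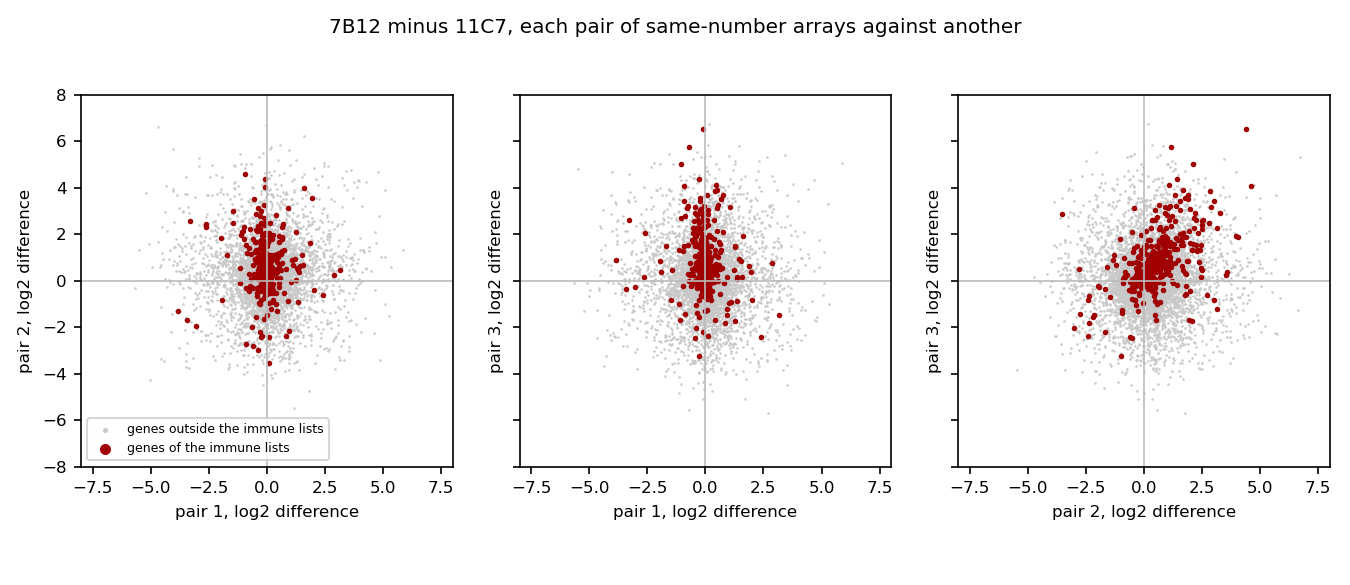
Difference of each gene (7B12 minus 11C7, log2) in 1 pair of arrays against another, with the 366 immune genes in red and all others in grey. The immune genes spread along the axis of pair 2 or 3 and stay near 0 in pair 1 in the left and middle panels, and extend to the upper right for pairs 2 and 3 in the right panel.

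By function, receptors for antibody and their signalling partners were among the genes higher with 7B12. Of 21 Fc receptor and ITAM signalling genes, 16 were above 0 with a median of 0.43 and pair medians of -0.11, 0.58 and 0.67, and 6 were higher at an unadjusted p under 0.05. Lyn, a kinase that starts signalling from these receptors, differed by 0.56 ± 0.15. Fcgr3a, a receptor for IgG, differed by 1.05 ± 0.35 through pairs 2 and 3 (-0.14, 1.62 and 1.66). All 14 Toll-like receptor and endotoxin sensing genes were above 0, with a median of 0.33 and 4 higher at that limit, among them Tlr2 at 1.15 ± 0.46 (without 11C7 replicate 1, 1.85 ± 0.12 with a limma adjusted p of 0.0103). Of 21 complement genes 14 were above 0 with a median of 0.39, including C3, the central complement component, at 1.10 ± 0.38.

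Ligands followed the same pairs. Of 29 chemokine ligands, 22 were above 0 with a median of 0.67, and 6 were higher at an unadjusted p under 0.05. The median chemokine stood at 0.60, -0.37 and -0.26 in the 11C7 arrays and at 0.21, 0.14 and 1.59 in the 7B12 arrays, so the 7B12 array 3 was far above all others. Cxcl1, which draws neutrophils, differed by 0.53, 0.64 and 3.25 in pairs 1 to 3. Of 30 genes of the interleukin-1 and TNF systems and the inflammasome, 23 were above 0 with a median of 0.43. Sod2, the mitochondrial superoxide dismutase that NF-κB induces, differed by -0.31, 2.22 and 2.63 (without 11C7 replicate 1, 2.34 ± 0.18 with a limma adjusted p of 0.0135), and the median over the 17 NF-κB genes and inhibitors was 0.31.

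Interferon-stimulated genes were highest in 7B12 replicate 3. Of 37 measured, 33 were above 0 with a median of 0.48, and 8 were higher at an unadjusted p under 0.05. Their median stood at 0.65, -0.02 and 0.03 in the 11C7 arrays and at 0.63, 0.15 and 1.12 in the 7B12 arrays, against -0.45 to 0.10 in the controls. The list median was 0.20 without 7B12 replicate 3 and 0.22 without 11C7 replicate 3. Gbp2, a guanylate-binding protein induced by interferon, stood at 1.97, 0.60 and -0.33 with 11C7 and at 2.03, 2.52 and 3.34 with 7B12. Irf7, a transcription factor of the interferon response, stood at 2.13, 0.14 and -0.31 with 11C7 and at 2.63, 1.16 and 2.81 with 7B12. Their 7B12 arrays were all above 1, and for both genes 11C7 replicate 1 was the highest of its group. The differences were 1.88 ± 0.57 for Gbp2 and 1.55 ± 0.51 for Irf7. Of 20 genes of MHC class I presentation and the immunoproteasome, 18 were above 0 with a median of 0.40. RT1-N3, a class I gene, stood at -0.12, -1.68 and -1.91 with 11C7 and at 0.95, -0.77 and 1.26 with 7B12. Its control arrays lay between -0.04 and 0.58, so all 11C7 arrays and 7B12 replicate 2 were below them. Tapbp, which helps load class I molecules with peptide, stood at 0.12, -0.62 and -0.07 with 11C7 and at 0.21, 0.49 and 0.96 with 7B12. RT1-N3 is part of a multigene family, so its probe set may read relatives.

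Promoters were searched, because interferon and NF-κB act through known sequence motifs and these genes stood higher together in pairs 2 and 3. The windows run from 250 bases before to 50 after each gene's start in RefSeq, build GRCr8, and 11733 of the 14217 genes had one. The interferon-type motif GAAANNGAAA, on either strand and with overlapping matches allowed, occurred in 3.77% of all 27457 windows. It occurred in 20 of 31 windows of the interferon-stimulated list (64.5%), in 9 of 17 of the MHC class I list (52.9%) and in 0 of 19 of the myelin list. The NF-κB-type motif GGGNNTTTCC occurred in 1.51% of all windows, in 5 of 13 of the NF-κB list (38.5%) and in 5 of 22 of the chemokine list (22.7%). These lists hold many known targets, so the shares describe the lists and not the antibodies. The stretches around the motif are printed for genes with values given here, 5′ to 3′ on the strand of the gene, with the letters of the motif searched for in that gene's list in capitals (a motif on the opposite strand appears as its reverse complement). They are RT1-N3 (chr20:2666239-2666336, plus strand), Tapbp (chr20:4967878-4967942, minus strand), Gbp2 (chr2:234005651-234005726, plus strand), Irf7 (chr1:205800038-205800137, minus strand), Cxcl1 (chr14:17479351-17479450, minus strand) and Nfkbia (chr6:78597073-78597148, minus strand), the last encoding the inhibitor IκBα.
RT1-N3: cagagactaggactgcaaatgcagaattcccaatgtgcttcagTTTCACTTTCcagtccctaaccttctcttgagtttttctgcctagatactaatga
Tapbp: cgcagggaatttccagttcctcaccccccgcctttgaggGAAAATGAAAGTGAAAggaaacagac
Gbp2: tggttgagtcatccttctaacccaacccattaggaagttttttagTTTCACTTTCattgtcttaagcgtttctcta
Irf7: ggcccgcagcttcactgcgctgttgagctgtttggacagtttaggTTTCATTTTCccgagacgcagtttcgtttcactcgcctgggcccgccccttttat
Cxcl1: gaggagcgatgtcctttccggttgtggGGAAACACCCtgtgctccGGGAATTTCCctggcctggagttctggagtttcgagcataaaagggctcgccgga
Nfkbia: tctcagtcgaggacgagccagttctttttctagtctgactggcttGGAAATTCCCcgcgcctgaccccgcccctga
In the first 4 the capitals mark the interferon-type motif, with 2 overlapping matches in Tapbp, and in the last 2 the NF-κB-type motif, with 2 matches in Cxcl1. The Tapbp stretch also holds 1 match to the NF-κB-type motif, left in lower case near its 5′ end. Nfkbia differed by -0.15, 0.50 and 1.14 in pairs 1 to 3. A match is a run of letters, and binding was not measured.

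Macrophage and microglia markers did not move as a block. Of 23 markers of border macrophages and phagocytes, 17 were above 0 with a median of 0.63, and 6 were higher at an unadjusted p under 0.05. Among 18 homeostatic microglia markers, 9 were above 0 with a median of 0.01. Tmem119, a microglial membrane protein, stood at 0.34, -0.60 and -0.05 with 11C7 and at 0.76, 0.21 and 1.26 with 7B12, higher in each pair, at 0.84 ± 0.23. Aif1, the microglial protein Iba1, differed by 0.35 ± 0.12. Sall1, a transcription factor of resting microglia, went the other way in pairs 2 and 3, by 0.09, -0.94 and -1.26, and differed by -0.70 ± 0.25. Fabp4, a fatty acid-binding protein of macrophages, was lower in each pair, at -1.75 ± 0.58.

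Markers of blood-borne cells, which form one of the immune lists, also stood higher with 7B12. Of 26 markers of lymphocytes, neutrophils, mast cells and red cells, 19 were above 0 with a median of 0.40 and pair medians of -0.11, 0.88 and 0.23. Their median stood at -0.78, -1.11 and -0.32 with 11C7, and at -0.75, -0.14 and -0.32 with 7B12, against -1.35, -1.69 and -0.42 in NT and -0.95, -0.99 and -0.42 with IgG. The median of IgG less NT over this list was 0.47, larger than the 0.40 between the antibodies, and 4 genes each were higher and lower with 7B12 in all 3 pairs. Cd3d, of the T cell receptor complex, stood at -2.97, -3.42 and -2.44 with 11C7 and at -1.36, 0.56 and -0.51 with 7B12, and had no probe set with a 12-array median of 1. Its NT arrays lay at -3.93, -3.12 and -3.04 and its IgG arrays at -1.72, -0.55 and -1.46, so the 2 control groups stood apart from each other as well. Cd3d differed by 2.51 ± 0.43, and by 1.61, 3.98 and 1.94 in the pairs. The part of these cells in the immune differences was not tested.

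Some immune genes differed in the same direction in all 3 pairs, replicate 1 included. Cd74, the invariant chain of MHC class II, stood at -0.16, -1.67 and 0.15 with 11C7 and at 0.25, -0.73 and 1.27 with 7B12. It followed the replicate number in every group, lowest in replicate 2 and highest in replicate 3, and within the pairs 7B12 was higher by 0.41, 0.94 and 1.12. The difference of 0.82 ± 0.15 had an unadjusted p of 0.000815 and a limma adjusted p of 0.538. RT1-Ba, a class II alpha chain, was higher by 0.40, 1.04 and 0.69, with 3 of its 4 probe sets higher, though over the 14 class II genes the median was 0.07. Cfp, the complement activator properdin, was higher by 0.45, 0.38 and 0.43, at 0.42 ± 0.10. Zbp1, an interferon-induced sensor of nucleic acids, stood at -0.61, -0.01 and 0.24 with 11C7 and at 0.82, 0.65 and 1.18 with 7B12, with no overlap and its greatest difference in pair 1. Ptgs1, the constitutive cyclooxygenase, was higher by 0.62, 0.48 and 0.51. Opposite to these genes, Cd200r1l, a relative of the receptor for the inhibitory ligand CD200, was lower with 7B12. It stood at -0.04, 0.10 and -0.10 with 11C7 and at -0.94, -2.63 and -1.53 with 7B12, and the 6 control arrays lay between -0.25 and 0.84. The 7B12 arrays were below all 9 others, by 3.22-fold against 11C7 (-1.69 ± 0.46). Ltc4s, which makes leukotriene C4, was low in all 7B12 arrays (-1.68, -2.19 and -1.76) and in 11C7 replicate 1 (-1.80), but not in 11C7 replicates 2 and 3 (0.23 and 0.62). Without 11C7 replicate 1 it differed by -2.42 ± 0.22 with a limma adjusted p of 0.0237.

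Outside the immune lists, single genes separated the 2 antibodies in all 3 pairs. Cdh8, a cadherin that joins certain neurons at synapses, had the smallest unadjusted p among genes with a probe set of median 1. It stood at -2.81, -0.96 and -1.89 with 11C7 and at -0.22, 0.83 and 0.38 with 7B12, while the control arrays lay between -0.14 and 0.56. All 3 arrays of 11C7 were below the other 9 and the 7B12 arrays were within or near the control range. The difference was 2.21 ± 0.27, or 4.63-fold, with an unadjusted p of 4.94e-05 and a limma adjusted p of 0.351, and without 11C7 replicate 1 it was 1.89 ± 0.21 with an adjusted p of 0.0346. The remaining cadherins did not share it: over the 20 measured the median difference was -0.01.

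Fap, a surface protease of activated fibroblasts, was low with 11C7 as well. It stood at -1.40, -1.28 and -2.34 with 11C7 and at 0.55, -0.05 and 0.88 with 7B12, a difference of 2.13 ± 0.40 or 4.38-fold. Immp2l, a protease subunit of the mitochondrial inner membrane, stood at -2.97, -0.93 and -2.60 with 11C7 and at -0.89, 0.16 and 0.20 with 7B12. Abat, the enzyme that breaks down GABA, stood at -1.42, -0.83 and -1.68 with 11C7 and at -0.17, 0.36 and -0.45 with 7B12. For Fap, Immp2l and Abat the 3 arrays of 11C7 lay below all 9 others, though for Immp2l the gap between -0.93 and -0.89 was narrow. Abat was higher by 1.25, 1.19 and 1.22 in the pairs, with all 3 of its probe sets higher, a difference of 1.22 ± 0.25.

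Several further genes were higher with 7B12 in all 3 pairs. Pde1a, a phosphodiesterase activated by calmodulin, was higher by 0.73, 1.21 and 1.19 and differed by 1.04 ± 0.17. Camkk2, a kinase of calcium signalling, differed by 0.86 ± 0.18. Dusp5, a nuclear phosphatase of ERK, was higher by 0.42, 0.92 and 0.63. Ado, which oxidises cysteamine, stood at -0.86, -0.60 and -0.05 with 11C7 and at 0.04, 0.46 and 1.04 with 7B12. Rnf223 differed by 1.30 ± 0.23, with no overlap of the 2 groups. Efnb1, a membrane-bound guidance ligand, stood at -0.15, -0.38 and -0.19 with 11C7 and at 0.57, 0.59 and 0.32 with 7B12. Rbpms and Tal1 differed by 0.80 ± 0.16 and 0.58 ± 0.12. Against the controls, Rbpms differed by 0.97 with 7B12 and 0.17 with 11C7, Efnb1 by 0.51 and -0.23, and Camkk2 by 0.51 and -0.35. For Pde1a, Dusp5, Ado, Rnf223 and Tal1 it was 11C7 that lay farther from the controls. Dusp5 differed from them by 0.03 with 7B12 and -0.63 with 11C7, and Tal1 by -0.17 and -0.75. For Crkl, an adaptor of kinase signalling (0.84 ± 0.14), and Lrba (1.47 ± 0.27) only 1 of 2 probe sets was higher, and both differences vanish or turn when a single probe set is taken, to -0.00 and -0.06. The controls differed for Lrba too, IgG less NT by -1.20 ± 0.27, with 11C7 near IgG and 7B12 nearer NT.

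Among genes lower with 7B12, some set 7B12 apart from 11C7 and the controls alike. Mmrn2, a matrix protein of blood vessels, stood at 0.08, -0.01 and 0.07 with 11C7 and at -2.74, -2.17 and -1.04 with 7B12, with controls between -0.16 and 0.94. All 3 arrays of 7B12 were below the other 9, by 4.09-fold against 11C7 (-2.03 ± 0.40). Over the 23 endothelial markers, the median was -0.22 with pair medians of 0.05, -0.33 and -0.06, and Eng, a receptor of vessel cells, differed by 0.91 ± 0.31 in the other direction.

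The others were mixed: the antibodies lay on either side of the controls, 11C7 lay apart, or 7B12 again lay apart. Against the controls, Pde8a differed by -0.76 with 7B12 and 0.15 with 11C7, and Ift70b by -0.42 and 0.03. Syt15, a synaptotagmin, stood at 0.48, 0.40 and 0.57 with 11C7 and at -0.03, -0.88 and -1.30 with 7B12, and differed by -1.22 ± 0.23. Cry1, a repressor of the circadian clock, stood at 0.14, 0.47 and 0.13 with 11C7 and at -0.24, -0.32 and -0.52 with 7B12, and differed by -0.61 ± 0.13. Cmtm8 was high with 11C7 alone, at -0.42, -0.29 and 0.21, against -1.23, -2.56 and -1.88 with 7B12 and -1.93 to -1.30 in the controls. The sodium leak channel gene Nalcn differed by -0.40, -0.67 and -0.49 in the pairs, and the laminin gene Lama2 by -0.83, -0.54 and -0.54. For Lama2 the control groups differed by more, IgG less NT by 0.78 ± 0.14, with 11C7 near IgG and 7B12 near NT. Ncam2, an adhesion molecule of neurons, differed by -0.86, -0.75 and -0.42, and Pde8a, a phosphodiesterase of cAMP, by -1.44, -0.90 and -0.41. Styxl1, Prss32, Klhl4, Mob2, Ift70b, Art3 and LOC102553541 were lower in all 3 pairs with mean differences between -1.26 and -0.45. The smallest p of all genes belonged to Ky, a muscle protein, which was singled out after its values were seen and has no probe set of median 1. It stood at -0.30, -0.70 and -0.31 with 11C7 and at -1.84, -2.41 and -1.63 with 7B12, and differed by -1.52 ± 0.16 (limma adjusted p = 0.266; 0.041 without 11C7 replicate 1).

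Fibroblast and vessel wall genes were above 0 more often than not. Of 31 such genes, 24 were above 0 with a median of 0.27 and pair medians of 0.09, 0.54 and 0.19. In all 3 pairs 12 were higher, against 12.8% of all genes. The median of IgG less NT over this list was -0.21, so the control groups stood apart as well. Beside Fap, these included Fbln2, a fibulin of the matrix, at 0.74 ± 0.19, and Acta2, smooth muscle actin, at 0.46 ± 0.14, both with no overlap between the antibodies. Lum, a small matrix proteoglycan, was higher by 0.25, 1.62 and 1.17. Rgs5, a marker of pericytes with no probe set of median 1, went the other way at -2.60 ± 1.07.

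The insulin-like growth factor system gave opposite values for a factor and a binding protein. Igf1 stood at -0.96, 0.43 and 0.37 with 11C7 and at -1.15, -1.36 and -1.29 with 7B12, with controls between -0.14 and 0.75. It was low in 11C7 replicate 1 too, as the immune genes were high there, and all 3 of its probe sets were lower, at -1.21 ± 0.35. Igfbp6, which binds IGF2, was higher by 1.23, 2.50 and 2.26, at 2.00 ± 0.44. Over the 16 genes of the system the median was 0.12.

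Myelin genes stood lower with 7B12 than with 11C7, in replicate 1 as in the others. All 28 genes of the myelin and mature oligodendrocyte list had a difference below 0, with a median of -0.31 and pair medians of -0.31, -0.50 and -0.21. Of these, 16 were lower in all 3 pairs, 9 were lower at an unadjusted p under 0.05 and 3 did not overlap between the groups, against the shares of 14.6%, 3.99% and 3.43% over all genes. Differences of single myelin genes were small. Mobp, a structural protein of myelin, stood at -0.36, 0.55 and 0.74 with 11C7 and at -0.78, -0.23 and 0.00 with 7B12, and differed by -0.65 ± 0.18, or 1.57-fold. Ermn, which shapes the oligodendrocyte cytoskeleton, differed by -0.69 ± 0.21, and Car2, carbonic anhydrase 2, by -0.70 ± 0.21 through pairs 2 and 3. Enpp2, or autotaxin, differed by -0.45, -0.77 and -0.46 in the pairs, and Qdpr, which regenerates tetrahydrobiopterin, by -0.41, -0.52 and -0.28. Fa2h, which hydroxylates the fatty acids of myelin lipids, and Bcas1 differed by -0.47 ± 0.16 and -0.43 ± 0.15. Mbp, the main basic protein of myelin, outside the naming rule and chosen after its values were seen, differed by only -0.01 ± 0.15.

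The myelin list also differed between replicate numbers. Its median stood at -0.22, 0.35 and 0.38 with 11C7, at -0.50, -0.10 and 0.15 with 7B12, at -0.68, -0.04 and 0.43 in NT and at -0.66, 0.25 and 0.50 with IgG. Replicate 1 was the lowest of every group, and the 7B12 arrays overlapped with the controls. Set against the mean of both control groups, which they share, the list median was -0.20 for 7B12 and 0.20 for 11C7. The list median kept its sign in every alternative, between -0.43 and -0.27.

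Precursor genes stood lower with 7B12 too, more so in pairs 2 and 3. Of 13 oligodendrocyte precursor genes, 11 were below 0 with a median of -0.26, pair medians of -0.10, -0.40 and -0.39, and 4 with no overlap in that direction. Pdgfra, the growth factor receptor that marks these cells, stood at 0.03, 0.22 and 0.29 with 11C7 and at -0.14, -0.73 and -0.13 with 7B12, and differed by -0.52 ± 0.15. Bmp4, a signal made by maturing precursors, stood at 0.02, 0.64 and 0.11 with 11C7 and at -0.36, -0.59 and -0.35 with 7B12. Enpp6, a marker of newly formed oligodendrocytes, stood at 0.28, 0.69 and 0.26 with 11C7 and at -0.67, -0.27 and -0.21 with 7B12. In all 3 of these genes the antibody groups were apart, although their differences, with Bmp4 at -0.69 ± 0.20 and Enpp6 at -0.80 ± 0.38, did not pass the adjusted test. Olig1, a transcription factor of the lineage, differed by -0.26 ± 0.13.

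Genes of cholesterol synthesis, uptake and efflux stood lower by a small amount. Of 33, 25 were below 0 with a median of -0.12 and pair medians of -0.17, -0.10 and -0.05, and 12 were lower in all 3 pairs. Sc5d, an enzyme near the end of the synthesis, stood at 0.15, 0.20 and 0.08 with 11C7 and at -0.12, -0.10 and -0.32 with 7B12, with no overlap. Sc5d differed by -0.32 ± 0.09, and Hsd17b7 and Idi1, enzymes of the same pathway, by -0.46 ± 0.17 and -0.45 ± 0.18. Apoe, which carries cholesterol and is also made by activated microglia, went the other way through pairs 2 and 3 (-0.10, 1.98 and 1.65). Over the 47 genes of the mitochondrial respiratory chain, 37 were below 0 with a median of -0.08.

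**Figure D4:**
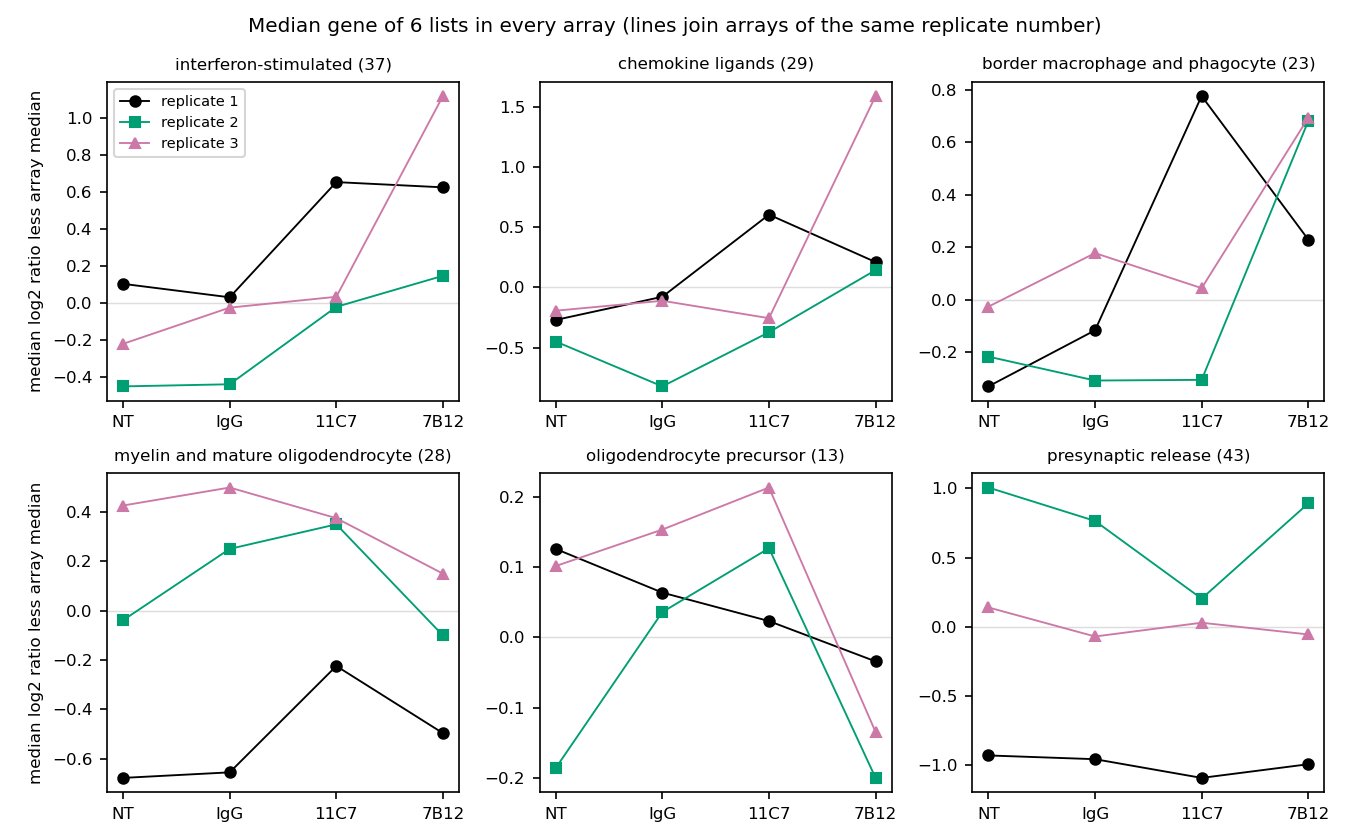
Median log2 ratio less array median over the genes of 6 lists in each of the 12 arrays, with lines joining arrays of the same replicate number across NT, IgG, 11C7 and 7B12. Replicate 1 (black) is high in 11C7 for the interferon, chemokine and macrophage lists, and the myelin list drops from 11C7 to 7B12 in all 3 replicates. In the presynaptic list replicate 1 is the lowest and replicate 2 the highest of every group, with a dip of replicate 2 in 11C7.

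Neuronal genes stood higher with 7B12 mainly in pair 2. Of 432 genes in the neuronal lists, 274 were above 0 with a median of 0.11 and pair medians of -0.03, 0.47 and -0.04. Of 43 presynaptic release genes, 33 were above 0, with pair medians of 0.00, 0.91 and -0.09. Their median stood at -1.09, 0.20 and 0.03 with 11C7 and at -0.99, 0.89 and -0.05 with 7B12, against -0.93, 1.01 and 0.14 in NT and -0.95, 0.77 and -0.07 with IgG. Replicate 1 was low and replicate 2 high in every group, and 11C7 replicate 2 was the lowest of the replicates numbered 2. Syn1, the synaptic vesicle protein synapsin 1, stood at -1.09, 0.19 and 0.07 with 11C7, at -0.69, 1.42 and 0.06 with 7B12 and at -0.97, 1.41 and 0.36 in NT. Without 11C7 replicate 2 the medians turned below 0 for the presynaptic list (-0.02), GABA transmission (-0.06), glutamate receptors (-0.02), potassium channels (-0.07) and principal neurons (-0.12). Those lists thus rest on that array.

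Single genes of the inhibitory and other neuronal lists varied in how even their differences were over the pairs. Slc32a1, the vesicular transporter of GABA, was higher by 0.49, 0.94 and 0.52 and differed by 0.65 ± 0.18, though its values followed the replicate number (-1.02, 1.17 and -0.16 with 11C7). Glrb, the beta subunit of the glycine receptor, differed by -0.10, 1.77 and 1.55, and Gabrg1, a GABA receptor subunit, differed by -0.21, -0.67 and -0.39. Of 23 interneuron markers, 14 were above 0 with a median of 0.26. Stxbp5 (tomosyn), which restrains vesicle fusion, was higher by 0.21, 0.68 and 0.35 with no overlap. Homer1 differed by 0.00, 0.92 and 0.88, and without 11C7 replicate 1 by 0.91 ± 0.11 with a limma adjusted p of 0.0482. Among potassium channel genes, Kcne2, an accessory subunit, was higher by 2.10, 1.13 and 2.70, at 1.98 ± 0.52.

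Growth-related lists, which bear on the known role of Nogo-A, showed no common direction. Of 34 genes of the growth cone and axon regeneration, 22 were above 0 with a median of 0.09, which was -0.01 after quantile normalization and -0.05 without 11C7 replicate 2. Marcks, a protein that couples membrane and actin, was higher by 0.31, 0.50 and 1.03, with all 6 of its probe sets higher. Basp1, a growth cone protein related to it in function, differed by -0.72, -1.0 and -0.44, and Cntn2, an axonal adhesion molecule, by -1.47, -0.78 and -2.05. The medians were 0.03 for 28 semaphorin, plexin and neuropilin genes, -0.07 for 30 ephrin, Slit and netrin genes and -0.01 for 19 neurotrophin genes. Within these, Plxnd1 and Sema6c were higher by 0.53 ± 0.15 and 0.48 ± 0.16, and Sema4d, a semaphorin of oligodendrocytes, differed by -0.63 ± 0.26. Dsp, desmoplakin, a marker of dentate granule neurons, was higher by 0.98, 1.61 and 1.31.

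Housekeeping lists differed little. The 40 ribosomal protein genes had a median of 0.14, 33 above 0 and 0 with an unadjusted p under 0.05, and pair medians of -0.08, 0.18 and 0.35. Lysosomal, proteasome, heat shock and antioxidant genes had medians between -0.02 and 0.01. The 40 cell cycle genes had a median of -0.05, with pairs at -0.14, -0.26 and 0.29. Timp1, an inhibitor of matrix proteases induced in activated glia, differed by -0.02, 0.98 and 1.95, and Timp4 by 0.03, -1.20 and -1.48.

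The genes whose pair 1 difference lay farthest from pairs 2 and 3 were taken from both directions, 10 each, as a description with no test. Of these 20 genes, Slpi, Mfap3l and Igflr1 had a probe set of median 1. Slpi differed by -0.02, 6.72 and 5.33. Mfap3l differed by 1.19, -5.48 and -3.85, and Igflr1 by 2.09, -3.53 and -3.17. For Slpi the replicate 1 arrays were both high, whereas for the other 2 genes the sign turned between pair 1 and the rest. The endothelial adhesion molecule Sele was among the genes with no such probe set.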

How the data were processed

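Each of 12 RNA samples was labelled with biotin and read on an Affymetrix rat array. GCOS 1.4 and MAS5 (version not given) are named in the submitters' processing notes. The deposited values are ratios: per the series' design text, the authors normalized each array and divided each probe set by the control median, and the text also names a present-call filter and limits on ANOVA p-values and on fold (1.2). The values differ from that statement, since 76.4% of probe sets had a median of 1 (tolerance 0.0015) over the 12 arrays and 11.2% over the 6 controls. A constant divisor leaves log2 differences between groups as they are. Arrays have no read depth, and their number limits the precision.

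Of 31099 probe sets, 57 spike-ins were left out. By GEO's platform annotation 20826 probe sets carry 1 gene symbol, 436 several and 9780 none here, which gives 14217 genes. limma 3.58.1 (R 4.3.3) was fitted to log2 ratios less array medians, with the 4 group means, the replicate number as a block over all 12 arrays, eBayes, two-sided tests and Benjamini-Hochberg adjustment (threshold 0.05). The fit was tested on simulated data. The block is in the fit because the samples pair by number: same-numbered samples' deviations from group means correlated by 0.086 to 0.423, above 0.1 in 17 of 18 pairs, against -0.293 to 0.081 between different numbers. Deviations cancel out within each group, so the low values between different numbers follow in part from the high ones and are no separate evidence. The pairing comes from the titles and the same-number values.

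Genes were named by a rule: up to 15 per direction with the smallest p, at least 1.2-fold, 1 sign in all 3 pairs and a probe set of median 1; up to 4 per list and members against their list; the reticulons and Nogo receptor genes; and 10 per direction for the pattern of pairs. The members and lists were chosen with earlier results of these data known, and lists are described by counts and medians without a test. Alternatives were the block, the arrays fitted, scaling, probe sets, weights, prior, a pseudocount of 0.1 and leaving out arrays. Promoter windows came from RefSeq (GRCr8).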

Additional observations from a re-analysis of the deposited data

Results flagged for a closer look

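For some genes, every 7B12 array lay on one side of the mean of its same-numbered NT and IgG arrays and every 11C7 array on the other, and the difference between these 2 responses was not tested beyond the fit of 7B12 against 11C7, in which none passed. Over all 14217 genes, 105 (0.739%) were above the controls with 7B12 and below them with 11C7, and 147 (1.03%) the reverse. Of the 266 genes that the naming rule gives, 23 showed either pattern. With 7B12 above and 11C7 below, the differences on the log2 scale were 1.04 for Pde1a, 0.836 for Crkl, 1.30 for Rnf223, 1.47 for Lrba, 0.823 for Cd74, 0.860 for Camkk2, 0.915 for Lingo2, 0.558 for Cntfr and 0.420 for Cfp. The same pattern held for Cd3d (2.51), Cd5 (0.870), Lum (1.02), Slc32a1 (0.649) and Kcnh2 (1.63). The reverse held for Nalcn (-0.524), Styxl1 (-0.674), Syt15 (-1.22), Prss32 (-0.632), Cry1 (-0.607), Lama2 (-0.639), Mob2 (-0.522), Art3 (-0.699) and Qdpr (-0.402). Most of these genes were chosen for their difference between the antibodies, which makes opposite sides more likely. For 8 of the 23, IgG and NT differed at an unadjusted limma p under 0.05: IgG less NT was -1.20 for Lrba, 0.780 for Lama2, 2.12 for Cd3d, 0.989 for Cd5, -0.487 for Pde1a, -0.501 for Cntfr, 0.318 for Styxl1 and -0.322 for Cry1. For Pde1a the 7B12 arrays were 0.16, 0.25 and 0.03 above their controls and the 11C7 arrays differed from them by -0.56, -0.96 and -1.16.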

How the results depend on the processing

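Counts at an unadjusted p under 0.05 moved with the fit. Without a replicate block 1189 probe sets and 352 higher and 172 lower genes were counted, and 487 and 225 genes with only the 6 antibody arrays. Array weights gave 1292 probe sets and 368 and 277 genes, values left uncentred 446 and 1008 genes, and quantile normalization 395 and 755. The analysis of variance with the 1.2-fold limit gave 804 probe sets. Leaving out replicates gave 0 to 27 probe sets and 0 to 49 genes with an adjusted p under 0.05, 1417 to 3132 probe sets at the unadjusted limit, and 347 to 973 higher and 291 to 740 lower genes. The 27 probe sets and 49 genes came without 11C7 replicate 1, and 1 probe set without 11C7 replicate 3. Lrba turned to -0.056 and Crkl to -0.0032 with the probe set of smallest residual SD, and Lrba also with median-1 probe sets alone; the cause is the choice of probe set. For 31 genes, Rtn4 and the 30 chosen by the smallest p, 740 of 744 values kept their direction and side of the threshold, and of these genes Cdh8 passed without 11C7 replicate 1. Further genes that the report names and that passed there are given with it. The median of the chemokine list lay between 0.25 (without replicate 3) and 1.35 (without replicate 1), of the interferon list between 0.097 and 0.80, of the myelin list between -0.43 and -0.27, and of the presynaptic list between -0.039 (without replicate 2) and 0.41. Of 51 list medians, 48 kept their sign uncentred, 47 after quantile normalization and 41 without 11C7 replicate 2. The fewest, 40, kept it without replicate 2 of every group.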
